A study of Mus musculus with 34 samples.

Results

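The migratory dendritic cells of MMTV-Wnt1 mammary tumours were taken as single cells with at least 1 UMI (unique molecular identifier, 1 counted transcript) of Ccr7, 2 of Fscn1 and 3 of H2-Aa and H2-Ab1 together. The same cells had fewer than 2 UMIs of the T cell receptor genes Cd3d, Cd3e and Cd3g, none of the epithelial gene Epcam, and fewer than 2 of Xcr1 and Clec9a. Of 43197 cells that passed the quality limits, 56 met the rule, or 41 in 10 sorted-cell libraries and 15 in a table of 2 pooled tumours. The cells were thus chosen by the counts of these genes, and the levels of Ccr7, Fscn1, H2-Aa and H2-Ab1 in them are given as a description. The same holds for every gene of the chosen cells set against the rest.

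A dendritic cell that has taken up antigen and matured stops sampling its surroundings, raises the chemokine receptor CCR7 and follows CCL19 and CCL21 into lymphatic vessels and lymph nodes. Fascin, the actin-bundling protein made from Fscn1, shapes the long processes of mature dendritic cells and takes part in their movement. In tumours, cells of this state are known for carrying ligands that stimulate T cells and ligands that restrain them on the same surface.

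MMTV-Wnt1 is a mouse mammary tumour driven by a Wnt1 transgene under the viral MMTV promoter, and here it was transplanted into C57BL6j mice. CD45-positive leukocytes were drawn magnetically from tumours of mice given 5 consecutive doses of 4 mg/kg doxorubicin with tumours taken 48 h after the last (2 libraries), or left untreated (2 libraries). CD4/8-positive cells were drawn from 6 further groups with 1 library each, of which 5 received the same doxorubicin course and 1 was untreated. From 48 h after doxorubicin, these mice received 200 ug anti-PD1 with 200 ug anti-CTLA4, 200 ug anti-PD1 with 200 ug IgG, 200 ug anti-CTLA4 with 200 ug IgG, or 400 ug IgG. Each antibody was given 3 times at intervals of 72 h, and tumours were taken 24 h after the last dose, while the remaining doxorubicin group was taken at 48 h with no antibody. The pooled table holds 1 doxorubicin-treated and 1 untreated tumour, grown in female C57BL6/j hosts of 6 to 8 weeks, and does not say which cells came from which. The labels give no age or sex for the sorted libraries and do not say whether 2 libraries of a group came from different mice, so the spread between them may be technical.

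The libraries held 16908180 to 93748407 UMIs, with a median of 4002 to 10513 UMIs per kept cell. The depth differed between the groups: the median kept cell had 5518 and 4002 UMIs in the CD45 doxorubicin libraries, against 10468 and 9508 in the CD45 untreated libraries. MHC class II cells were those that met the rule's limits on H2-Aa and H2-Ab1, Cd3 genes and Epcam. Among them the order was the reverse, with medians of 14432 and 11467 UMIs under doxorubicin, against 11200.5 and 9020 without treatment. The 56 cells had 1191 to 52054 UMIs (median 15864), 570 to 6560 genes (median 3230) and 0 to 8.62% mitochondrial UMIs. No pair of the 43197 kept profiles was identical, and the pooled table's barcode sets of 1508 and 2508 cells shared 0 barcodes. The matrices carry no barcode names, so sharing between sorted libraries could not be counted.

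The label was checked against Ccl22 and Cd200, the marker genes that the rule did not use. Ccl22, the chemokine that draws CCR4-bearing T cells, had a UMI in 51 of the 56 cells, and Cd200, the ligand of an inhibitory receptor on myeloid cells, in 42. Both were found in 40 cells. The cells also carried Ccl17 (45 of 56), the second CCR4 ligand, and Relb (54 of 56), the NF-kappaB subunit needed for dendritic cell maturation.

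Several members lay near the limits. The Fscn1 count ranged from 2 to 103 UMIs per cell (median 24) and stood at 2 in 2 cells. The Ccr7 count ranged from 1 to 137 (median 38) and stood at 1 in 4 cells, and 6 cells had fewer than 10 UMIs of H2-Aa and H2-Ab1 together. Just outside, 259 cells failed on Fscn1 alone, 250 of them with no Fscn1 UMI and 9 with 1 UMI. Of these, 24 and 3 had at least 10 Ccr7 UMIs. Among those without Fscn1, 76 cells had a UMI of the B cell receptor gene Cd79a and 41 had one of Ccl22. Among those with 1 Fscn1 UMI, 5 had Ccl22 and 1 had Cd79a. Such cells with Ccl22 lay in every CD45 library. They reached 18 and 63 Ccl22 UMIs in the doxorubicin libraries, against 30 and 5 in the untreated libraries. The shares given below thus rest on the Fscn1 limit, and shares without that limit were not computed. A further 32 cells failed on Ccr7 alone, 34 on Epcam, 8 on the T cell genes and 6 on MHC class II. The limit on Xcr1 and Clec9a alone removed 2 cells, which had 57 and 81 Ccr7 UMIs with 36 and 16 Fscn1 UMIs.

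**Figure D1:**
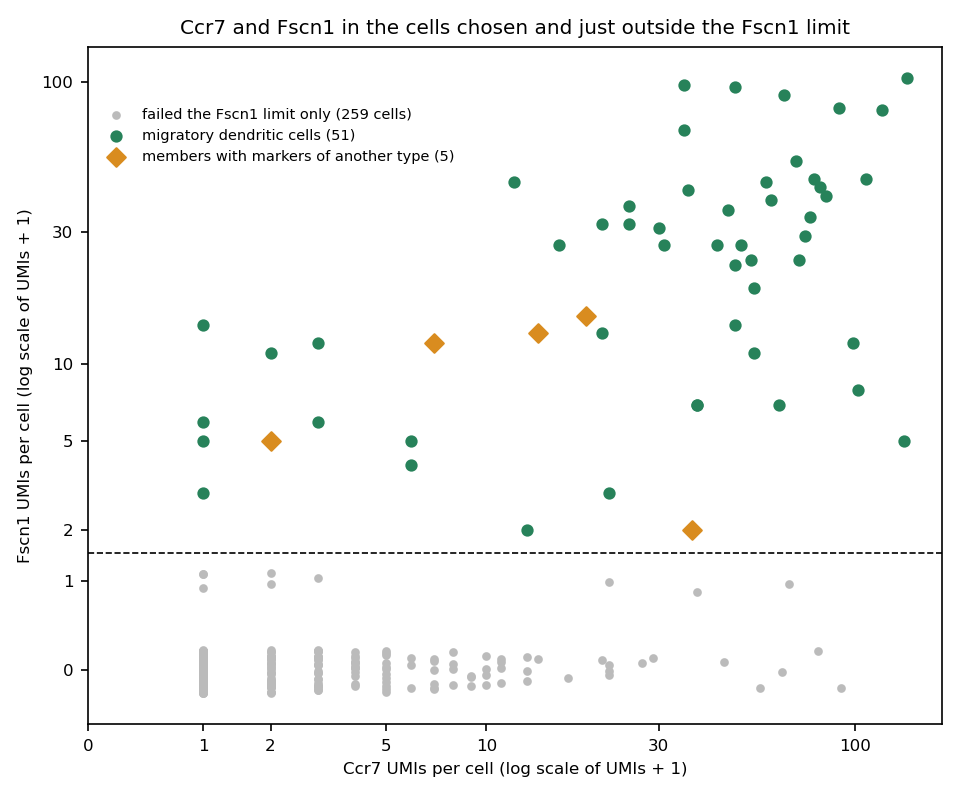
Ccr7 (horizontal) and Fscn1 (vertical) UMIs per cell on log scales of UMIs + 1, for the 56 cells chosen (circles, and diamonds for 5 cells with markers of another cell type) and for 259 cells that failed on Fscn1 alone (grey, jittered around 0 and 1). The dashed line separates 1 from 2 Fscn1 UMIs; most chosen cells lie far above it, and 27 grey cells have 10 or more Ccr7 UMIs.

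Markers of other cell types were found in 5 of the 56 cells. Complement C1q genes, which macrophages express, summed to 10 or more UMIs in 4 cells, and the B cell genes Cd79a, Cd79b and Ms4a1 summed to 5 or more in 2. The neutrophil genes S100a8 and S100a9 exceeded 10 UMIs in 1 cell, and the T cell receptor constant genes reached 3 UMIs in 0 cells. The cell with the most UMIs (52054, CD45 untreated 2), called the marked cell below, carried 3 of these signals, with 193 C1q UMIs, 13 B cell UMIs and 17 of S100a8 and S100a9, and only 2 of Fscn1. This cell held most of the 72281 UMIs of the 3 members of CD45 untreated 2. The levels that the text compares are therefore also given without it where they differ by more than 1.5 times. This choice was made after seeing the data. The 2 cells then left had 1191 and 19036 UMIs, so each such level rests mostly on 1 cell. The smaller cell had no UMI of Cd274, Pdcd1lg2, Cd80, Cd86, Cd200, Ccl22 or Ccl17. No doublet caller was run, and whether droplets with markers of another type held more than 1 cell was not tested. The summed level of 11 macrophage markers was 0.420 UMIs per 10000 in the 3 cells of CD45 doxorubicin 2, with 9 of 11 markers at 0, against 1.60 in the 23 cells of CD45 untreated 1 and 54.5 in the 3 cells of CD45 untreated 2, or 0.494 without the marked cell. In the other samples it was 37.1 in the anti-PD1 cells (2.27 without 1 cell that had 89 C1q UMIs), 0.260 in the IgG cells, 11.1 in the CD4/8 untreated cells (0 without 1 cell with 29 C1q UMIs) and 20.8 in the pooled cells (0.584 without 1 cell with 296). The 10 T cell markers summed to at most 1.44 UMIs per 10000 in any sample's members, where the rule limited Cd3 genes, and the 8 epithelial markers to at most 0.825.

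The share of these cells was compared between the CD45 libraries, since the group of a library took no part in choosing cells. They were 0 of 1480 and 3 of 3996 kept cells in the doxorubicin libraries, against 23 of 3581 and 3 of 1797 in the untreated libraries. As shares, these are 0% and 0.0751% (exact Clopper-Pearson 95% interval of the second 0.0155 to 0.219%) under doxorubicin, against 0.642% (0.408 to 0.962%) and 0.167% (0.0344 to 0.487%) without treatment. For counts of 0, the share allowed is given as 3 cells over the base, a limit that lies below the exact one. The 0 of 1480 thus allows a share of up to 0.203%, while its exact interval ran up to 0.249%. Intervals and such limits cover counting error only. Both doxorubicin shares lay below both untreated shares, and the untreated libraries differed from each other more than untreated 2 differed from doxorubicin 2. The mean share was 0.0375 ± 0.0531% under doxorubicin and 0.405 ± 0.336% in untreated tumours (SD, n = 2 each), a difference of -0.367 percentage points. The two-sided exact permutation test gave p = 0.333, the smallest p that 2 against 2 libraries allow. Without untreated 1 the difference was -0.129 points, without untreated 2 it was -0.605, and in cells thinned to 2000 UMIs it was -0.193.

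Kept cells are a mixture whose makeup differed between the groups. Cells with more than 10 UMIs of the neutrophil genes S100a8 and S100a9 made up 53.4% and 49.7% of the doxorubicin libraries, against 8.66% and 8.40% of the untreated libraries. MHC class II cells made up 11.01% and 10.8% under doxorubicin, against 34.6% and 41.6% without treatment. Over MHC class II cells alone, the migratory dendritic cells were 0 of 163 and 3 of 433 (0.693%, 0.143 to 2.01%) in the doxorubicin libraries. They were 23 of 1238 (1.86%, 1.18 to 2.77%) and 3 of 747 (0.402%, 0.0829 to 1.17%) in the untreated libraries. The 0 of 163 allows up to 1.84%, and its exact interval ran up to 2.24%. On this base the groups overlapped, with doxorubicin 2 above untreated 2. The mean was 0.346 ± 0.490% under doxorubicin and 1.13 ± 1.03% in untreated tumours (SD, n = 2 each), a difference of -0.783 points with an exact two-sided permutation p of 0.667. Without untreated 1 the difference shrank to -0.0552 points, without untreated 2 it was -1.51, and after thinning it was -0.0605. In thinned cells doxorubicin 2 stood highest, at 4 of 317 (1.26%), against 12 of 1134 (1.06%) in untreated 1 and 2 of 616 (0.325%) in untreated 2. The negative sign after thinning thus rested on doxorubicin 1, with 0 of 102. The exact test on so few libraries has a smallest p of 0.333, so it says nothing on whether the share among MHC class II cells differed.

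The Xcr1 Clec9a cells, MHC class II cells with 2 or more Xcr1 and Clec9a UMIs, were taken as type 1 dendritic cells. In all samples there were 109 of them, and only 2 failed the rule on that limit alone. They were 0 of 1480 and 1 of 3996 kept cells in the doxorubicin libraries. In the untreated libraries they were 35 of 3581 (0.977%) and 35 of 1797 (1.95%), and outnumbered the migratory cells in both. Over MHC class II cells they were 0 of 163 and 1 of 433 under doxorubicin, against 35 of 1238 and 35 of 747 without treatment. Differences in these shares were not tested.

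The CD4/8 libraries were drawn for T cells and held few of the migratory cells. With both antibodies there were 0 of 3451 kept cells, which allows up to 0.0869%, and with anti-CTLA4 0 of 3445, which allows up to 0.0871%. With anti-PD1 there were 3 of 6356 (0.0472%, 0.00973 to 0.138%), and with IgG 5 of 3614 (0.138%, 0.0449 to 0.323%). At 48 h after doxorubicin with no antibody there were 0 of 7623, which allows up to 0.0394%, and without treatment 4 of 3838 (0.104%, 0.0284 to 0.267%). The limits of the 3 libraries with none lay below the shares of the IgG and untreated libraries, but their exact intervals, which ran up to 0.0484% at 48 h, 0.107% with anti-CTLA4 and 0.107% with both antibodies, overlapped those of IgG and untreated. Over MHC class II cells the shares were 0 of 80, 0 of 199, 0.860%, 2.24%, 0 of 424 and 1.15% in the same order. With 1 library per group there is no test between these groups, and the magnetic draw sets how many cells other than T cells remain. The pooled tumours held 15 of 4016 (0.374%, 0.209 to 0.615%), 3 in the first barcode set and 12 in the second.

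**Figure D2:**
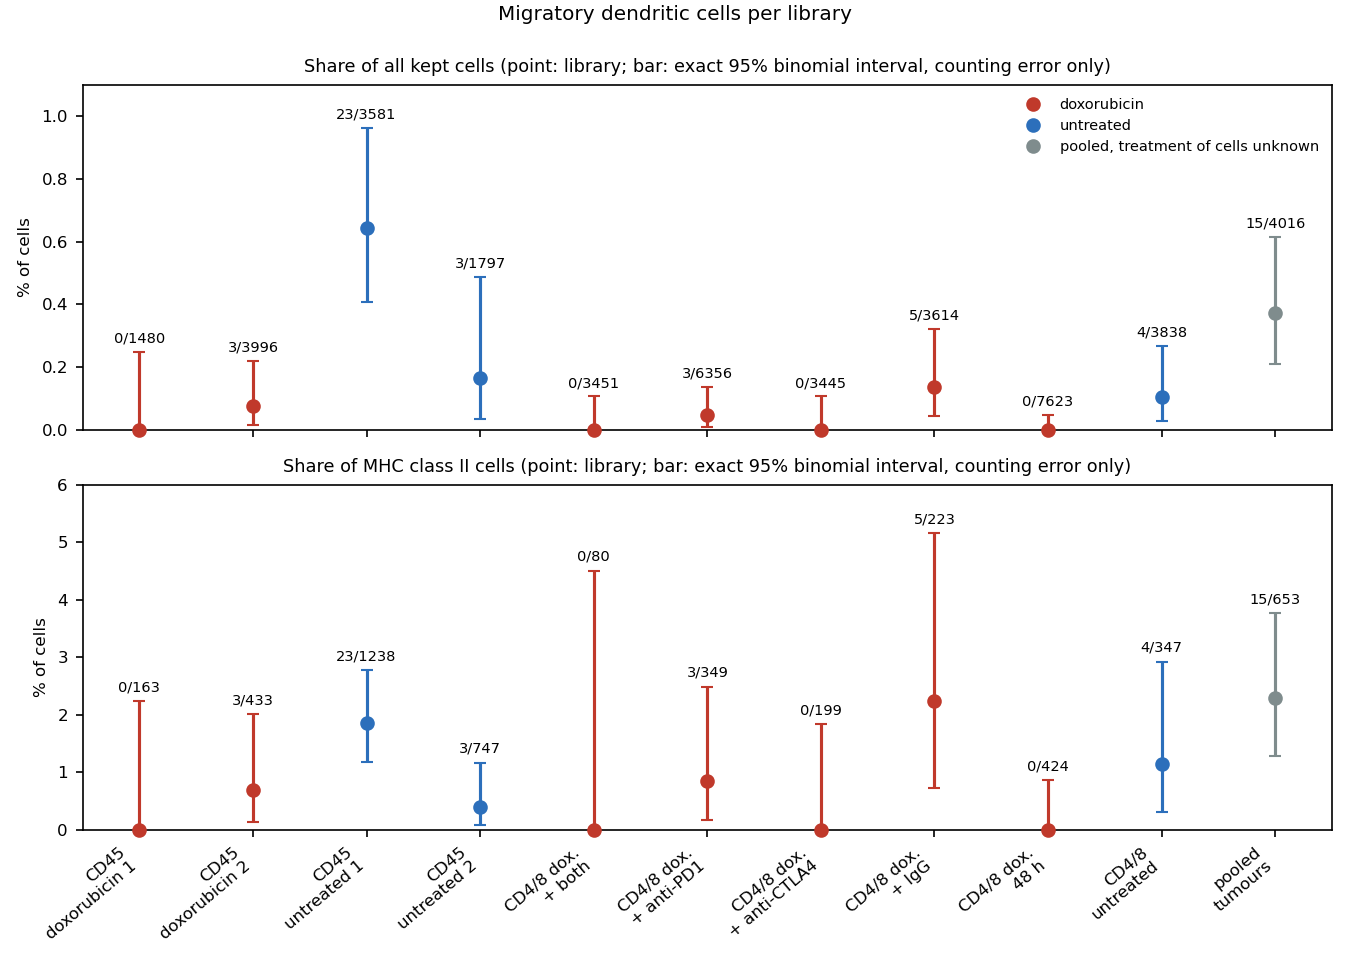
Share of migratory dendritic cells in each library (vertical axis, %), over all kept cells above and over MHC class II cells below; points are libraries, bars exact 95% binomial intervals, and the fractions give cells over their base. CD45 untreated 1 stands highest over kept cells at 0.642%, and CD45 doxorubicin 2 and untreated 2 change places between the panels.

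Ccr7 and Fscn1 set the identity of the cells, and the other genes of movement were mixed. Ccr7 stood at 26.6 UMIs per 10000 over all 56 cells, and Fscn1 at 17.4. Marcks, a membrane protein that binds actin, was at 12.03, and Samsn1, a signalling adaptor, at 12.1. Against all other cells of the same sample, Samsn1 was higher by 3.90 log2 units in CD45 untreated 1 and 3.69 in the pooled table, the 2 samples with at least 10 members. Leaving out Ccr7 and Fscn1, 11 genes of the migration and cytoskeleton list were measured. In CD45 untreated 1, 6 of them were at least 2-fold higher and 3 lower, where 12.6% and 31.8% of the 6795 genes measured were so. For the pooled cells, 4 were higher and 1 lower, where 10.1% and 28.5% of 7340 were so.

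The chemokines of these cells were led by Ccl5, Ccl22 and Ccl17. Ccl22 stood at 13.8 UMIs per 10000 over all 56 cells (95% Poisson interval 13.0 to 14.5). By sample, Ccl22 was 53.9 in the 3 cells of CD45 doxorubicin 2, against 11.9 in CD45 untreated 1 and 2.35 in CD45 untreated 2 (8.40 without the marked cell). It was 13.2 in the anti-PD1 cells (27.8 without the cell rich in C1q), 13.5 in the IgG cells, 7.63 in the CD4/8 untreated cells and 9.62 in the pooled cells. The high value of doxorubicin 2 rested on 1 cell with 309 Ccl22 UMIs, 80.3% of the library's count, and its cells had 15.8, 22.1 and 107 Ccl22 UMIs per 10000. The 23 cells of untreated 1 ran from 0 over a median of 6.02 to 56.0, and the 3 cells of untreated 2 had 0, 0 and 8.93, so the single cells of the groups overlapped. In each of the 7 samples Ccl22 was higher in the migratory cells than in Xcr1 Clec9a cells, C1q macrophages, the remaining MHC class II cells and T cells. The remaining MHC class II cells ranged from 0.0381 to 1.35 UMIs of Ccl22 per 10000 in those samples. This class is a mixture that leaves out Xcr1 Clec9a cells and C1q macrophages and includes cells with B cell transcripts. The log2 ratio of the B cell gene Cd79a in the migratory cells over this class was -1.46 in CD45 untreated 1 and -7.03 in the pooled table. Ratios to it are thus not a contrast with other dendritic cells.

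Ccl17 was 19.0 UMIs per 10000 in CD45 doxorubicin 2, against 6.19 in CD45 untreated 1 and 1.80 in CD45 untreated 2 (6.43 without the marked cell). It was highest in the anti-PD1 cells, at 35.2 (98.7 without the cell rich in C1q), where 1 cell held 73.3% of the Ccl17 count, against 2.47 in the IgG cells and 4.95 in the CD4/8 untreated cells. Ccl5, a T cell attractant, was uneven between cells: 10 cells had 100 or more Ccl5 UMIs, 6 had none, and 1 cell of the CD4/8 untreated library had 907. Ccl5 is also a product of T and NK cells. The rule held the T cell receptor genes low, and of the NK cell genes, Ncr1 had 4 UMIs, Prf1 3, Gzma 2 and Klrb1c 1 over all 56 cells. The 8 NK cell markers, which include Tyrobp, a gene that myeloid cells also express, summed to 2.60 to 15.4 UMIs per 10000 in the members of the 7 samples, against 5.97 to 19.5 in the other cells. Their part in the Ccl5 level was not tested. By sample Ccl5 was 29.5 in CD45 doxorubicin 2, against 24.7 in CD45 untreated 1 and 41.5 in CD45 untreated 2 (147 without the marked cell). It was 99.7 in the anti-PD1 cells, 91.8 in the IgG cells, 197 in the CD4/8 untreated cells and 18.9 in the pooled cells. Cxcl2, a neutrophil attractant, was found in 18 cells and lay mostly in 3 samples: 81.1 UMIs per 10000 in the anti-PD1 cells, 14.4 in CD45 doxorubicin 2 and 35.0 in CD45 untreated 2, against at most 0.373 in the rest. In CD45 untreated 2 all 253 Cxcl2 UMIs came from the marked cell, and without the cell rich in C1q the anti-PD1 value was 3.97, so the doxorubicin value was then the highest.

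Short stretches before the start sites of the marker and ligand genes were read from RefSeq (build GRCm38.p6), since NF-kappaB is a known regulator of several of them and its genes were high in these cells. Of the 8 genes Ccr7, Fscn1, Ccl22, Cd200, Cd274, Pdcd1lg2, Cd80 and Cd86, 6 had an entry, and Ccr7 and Cd86 had none. Within 250 bases before the start, a loose form of the kappaB site, GGGA followed by 4 bases of any kind and CC, searched on both strands, was found once each before Ccl22, Pdcd1lg2 and Cd80. It was not found in the windows of Fscn1, Cd200 and Cd274. Of 32851 such windows in the genome, 17.6% held it, so a match describes the letters and no more. The windows of the chemokine Ccl22 and of 3 checkpoint ligands are shown because the results turn on these genes, with the match in capitals. They lie on the plus strand at chr8:94745434-94745683 (Ccl22), chr19:29410669-29410918 (Pdcd1lg2), chr16:38458683-38458932 (Cd80) and chr19:29367188-29367437 (Cd274, no match). The match begins 131 bases before the start in Ccl22, 244 in Pdcd1lg2 and 210 in Cd80. In Cd80 it lies on the plus strand. In Ccl22 and Pdcd1lg2 it lies on the minus strand, so the capitals there show the reverse complement of the site.
Ccl22: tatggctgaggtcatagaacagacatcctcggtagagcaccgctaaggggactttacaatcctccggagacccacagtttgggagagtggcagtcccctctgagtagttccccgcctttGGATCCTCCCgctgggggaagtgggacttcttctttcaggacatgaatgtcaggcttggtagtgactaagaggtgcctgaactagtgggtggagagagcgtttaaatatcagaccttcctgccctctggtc
Pdcd1lg2: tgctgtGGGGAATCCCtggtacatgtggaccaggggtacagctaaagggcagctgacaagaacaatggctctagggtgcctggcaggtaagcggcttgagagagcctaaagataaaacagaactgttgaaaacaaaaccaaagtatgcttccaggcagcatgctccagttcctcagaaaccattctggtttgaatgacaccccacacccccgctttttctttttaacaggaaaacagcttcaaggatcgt
Cd80: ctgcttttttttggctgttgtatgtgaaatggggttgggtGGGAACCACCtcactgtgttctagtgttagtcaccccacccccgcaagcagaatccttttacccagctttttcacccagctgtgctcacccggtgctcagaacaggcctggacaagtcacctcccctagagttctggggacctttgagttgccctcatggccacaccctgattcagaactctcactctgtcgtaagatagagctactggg
Cd274: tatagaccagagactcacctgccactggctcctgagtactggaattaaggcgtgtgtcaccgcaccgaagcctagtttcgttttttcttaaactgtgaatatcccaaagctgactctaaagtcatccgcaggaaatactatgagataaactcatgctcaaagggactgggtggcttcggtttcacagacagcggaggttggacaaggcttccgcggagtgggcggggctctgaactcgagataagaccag

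The checkpoint ligands were read in every cell. PD-L1 and PD-L2, made from Cd274 and Pdcd1lg2, bind PD-1 on T cells and restrain them, and CD80 and CD86 bind CD28, which stimulates T cells, and CTLA-4, which restrains them. Of the 56 cells, 48 had a UMI of Cd274, 38 of Pdcd1lg2, 37 of Cd80 and 50 of Cd86. Both PD-1 ligands were found together in 36 cells and both CD28 ligands in 36, while Cd274 stood beside Cd80 or Cd86 in 47. All 4 were found in 26 cells, 3 of them in 19, 2 in 4, 1 in 4 and none in 3. Of the 3 cells with none, 2 had fewer than 4000 UMIs, a depth that only 6 members fell below.

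Cd274 stood at 3.60 UMIs per 10000 over all 56 cells (3.23 to 4.01). It was 4.76 (3.29 to 6.65) in the 3 cells of CD45 doxorubicin 2, against 4.91 (4.23 to 5.67) in CD45 untreated 1 and 3.87 (2.57 to 5.60) in CD45 untreated 2. The 3 intervals overlapped. Single cells ran from 3.10 to 6.58 UMIs of Cd274 per 10000 in doxorubicin 2, from 0 to 19.6 with a median of 5.61 in untreated 1, and from 0 to 7.88 in untreated 2. In the other samples Cd274 was 2.39 (1.31 to 4.01) in the anti-PD1 cells, 1.95 (1.09 to 3.22) in the IgG cells, 3.51 (2.04 to 5.61) in the CD4/8 untreated cells and 1.99 (1.47 to 2.64) in the pooled cells. The anti-PD1, IgG and pooled intervals lay below that of CD45 untreated 1, but they cover counting error only and not the spread between cells. In the anti-PD1 cells, the cell rich in C1q held 10 Cd274 UMIs, 71.4% of the count. Single cells ran from 1.70 to 3.43 UMIs per 10000 with anti-PD1, 0 to 3.58 with IgG and 0 to 7.62 in the pooled table. All of these lay within the range of untreated 1. Without the marked cell, Cd274 in CD45 untreated 2 was 7.42 (4.15 to 12.2), from 15 UMIs in 1 cell. Cd274 was higher in the migratory cells than in C1q macrophages, the remaining MHC class II cells and T cells in 7 of 7 samples, and higher than in Xcr1 Clec9a cells in 6 of 7. The exception was the IgG library, with 1.95 in the migratory cells against 2.37 in 4 Xcr1 Clec9a cells.

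Pdcd1lg2 was 2.80 UMIs per 10000 (1.71 to 4.32) in CD45 doxorubicin 2, against 1.09 (0.785 to 1.48) in CD45 untreated 1 and 1.38 (0.663 to 2.54) in CD45 untreated 2. The doxorubicin value was the highest of the 7 samples, and its interval cleared that of untreated 1 but not that of untreated 2. Without the marked cell, untreated 2 had 3.96 (1.71 to 7.79) and stood highest, from 8 UMIs in 1 cell. The doxorubicin value rests on 20 UMIs in 3 cells of 1 library, so no test between treatments was possible. Pdcd1lg2 was 0.342 in the anti-PD1 cells (1.13 without the cell rich in C1q), 1.04 in the IgG cells, 0.412 in the CD4/8 untreated cells and 1.45 in the pooled cells. Unlike Cd274, its place among the cell classes varied: the migratory cells were above the Xcr1 Clec9a cells in 5 of 7 samples and below them in CD45 untreated 1 (1.09 against 1.60) and in the IgG library (1.04 against 1.84). They were above C1q macrophages and the remaining MHC class II cells in 7 of 7 samples, and above T cells in 6 of 7. The exception was the anti-PD1 library, where they exceeded T cells without the cell rich in C1q.

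Cd80 was 2.10 UMIs per 10000 (1.17 to 3.46) in CD45 doxorubicin 2, against 1.12 (0.808 to 1.52) in CD45 untreated 1 and 2.63 (1.58 to 4.10) in CD45 untreated 2. In untreated 2, 1 cell held 84.2% of the Cd80 count, and the level was 7.91 (4.52 to 12.8) without the marked cell. Cd80 was 0.171 in the anti-PD1 cells, from 1 UMI (0.567 without the cell rich in C1q), 1.56 in the IgG cells, 1.24 in the CD4/8 untreated cells and 1.20 in the pooled cells. The doxorubicin value lay between the untreated values with and without that cell. In all 7 samples Cd80 was higher in the migratory cells than in the 4 other classes.

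Cd86 was 1.40 UMIs per 10000 (0.671 to 2.57) in CD45 doxorubicin 2, against 3.92 (3.32 to 4.61) in CD45 untreated 1 and 3.32 (2.13 to 4.94) in CD45 untreated 2. The doxorubicin value was the lowest of the 7 samples, and its interval lay below that of untreated 1 and overlapped that of untreated 2. It rests on 10 UMIs, 6 of them in 1 cell. Without the marked cell, Cd86 in untreated 2 was 6.92 (3.78 to 11.6), clear of the doxorubicin interval, but all 14 UMIs came from 1 cell. Cd86 was 2.90 in the anti-PD1 cells (6.24 without the cell rich in C1q), 5.20 in the IgG cells, 3.92 in the CD4/8 untreated cells and 1.83 in the pooled cells. It was higher in the migratory cells than in Xcr1 Clec9a cells in 6 of 7 samples, the pooled table being the exception at 1.83 against 1.87 (2.05 without its cell rich in C1q).

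Cd200 was 1.54 UMIs per 10000 (0.768 to 2.75) in CD45 doxorubicin 2, against 3.63 (3.05 to 4.29) in CD45 untreated 1 and 0.968 (0.389 to 1.995) in CD45 untreated 2. In doxorubicin 2, 1 cell held 10 of the 11 Cd200 UMIs, and in untreated 2 all 7 came from 1 cell. Cd200 was 0.854 in the anti-PD1 cells, 3.77 in the IgG cells, 1.44 in the CD4/8 untreated cells and 1.20 in the pooled cells. The doxorubicin value lay between the untreated values, but below both without the marked cell, when untreated 2 had 3.46 (1.39 to 7.13). The migratory cells exceeded the 4 other classes in all 7 samples.

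**Figure D3:**
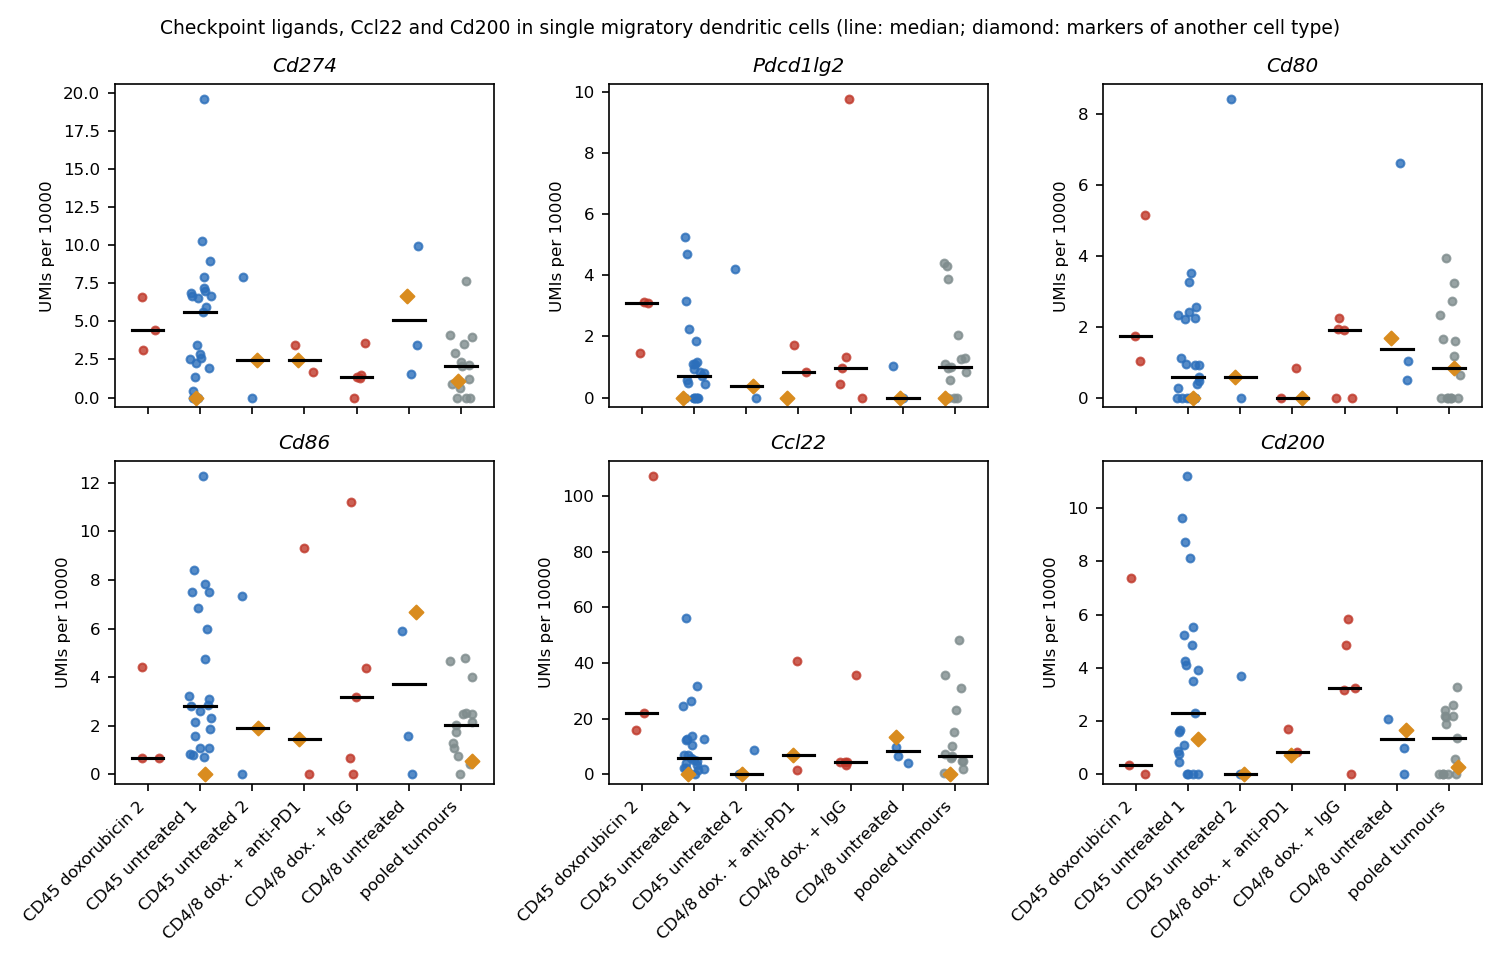
Levels of the checkpoint ligand genes, Ccl22 and Cd200 in each of the 56 cells (vertical axes, UMIs per 10000 UMIs of the cell), by sample; lines are medians, and diamonds mark the 5 cells with markers of another cell type. The cells of CD45 doxorubicin 2 lie within the range of CD45 untreated 1 for 4 of the 6 genes, and 1 cell lies above it for Ccl22, at 107, and for Cd80, at 5.15.

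Because deeper cells show more genes, detection was also compared after thinning each cell to 2000 UMIs, which left out 1 of the 56 cells. A Cd274 UMI was then found in 49.1% of the migratory cells, against 31.5% of 108 Xcr1 Clec9a cells, 21.3% of C1q macrophages, 24.8% of the remaining MHC class II cells and 8.06% of T cells. For Cd80 the shares were 25.5%, against 7.41%, 5.41%, 9.69% and 1.45% in the same order, and for Cd86 40%, against 30.6%, 21.4%, 21.1% and 4.94%. For Pdcd1lg2 they were 20%, against 14.8%, 5.27%, 5.31% and 7.58%. The binomial interval of the migratory cells overlapped that of the Xcr1 Clec9a cells for Cd274, Pdcd1lg2 and Cd86. For Cd80 it ran from 14.7 to 39.0%, against 3.25 to 14.1%. These intervals pool the cells of all samples as if independent, and the classes were spread differently over the samples. Before thinning, the CD45 untreated libraries held 35 and 35 of the 109 Xcr1 Clec9a cells, but 23 and 3 of the 56 migratory cells. Sample and cell class thus cannot be told apart in these shares. A Ccl22 UMI was found in 69.1% of the migratory cells. The shares were 2.78% of Xcr1 Clec9a cells, 0.934% of C1q macrophages, 3.11% of the remaining MHC class II cells and 0.363% of T cells. The T cell class gives only a rough background at the same depth, since it was set by Cd3 genes alone. The 8 cells that failed the rule on the T cell genes alone belong to it, and 6 of them had a Ccl22 UMI before thinning. Cd200 was found in 34.5%, against 0.926% of Xcr1 Clec9a cells, 0.767% of C1q macrophages, 3.92% of the remaining MHC class II cells and 4.52% of T cells, some of which are known to express it.

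**Figure D4:**
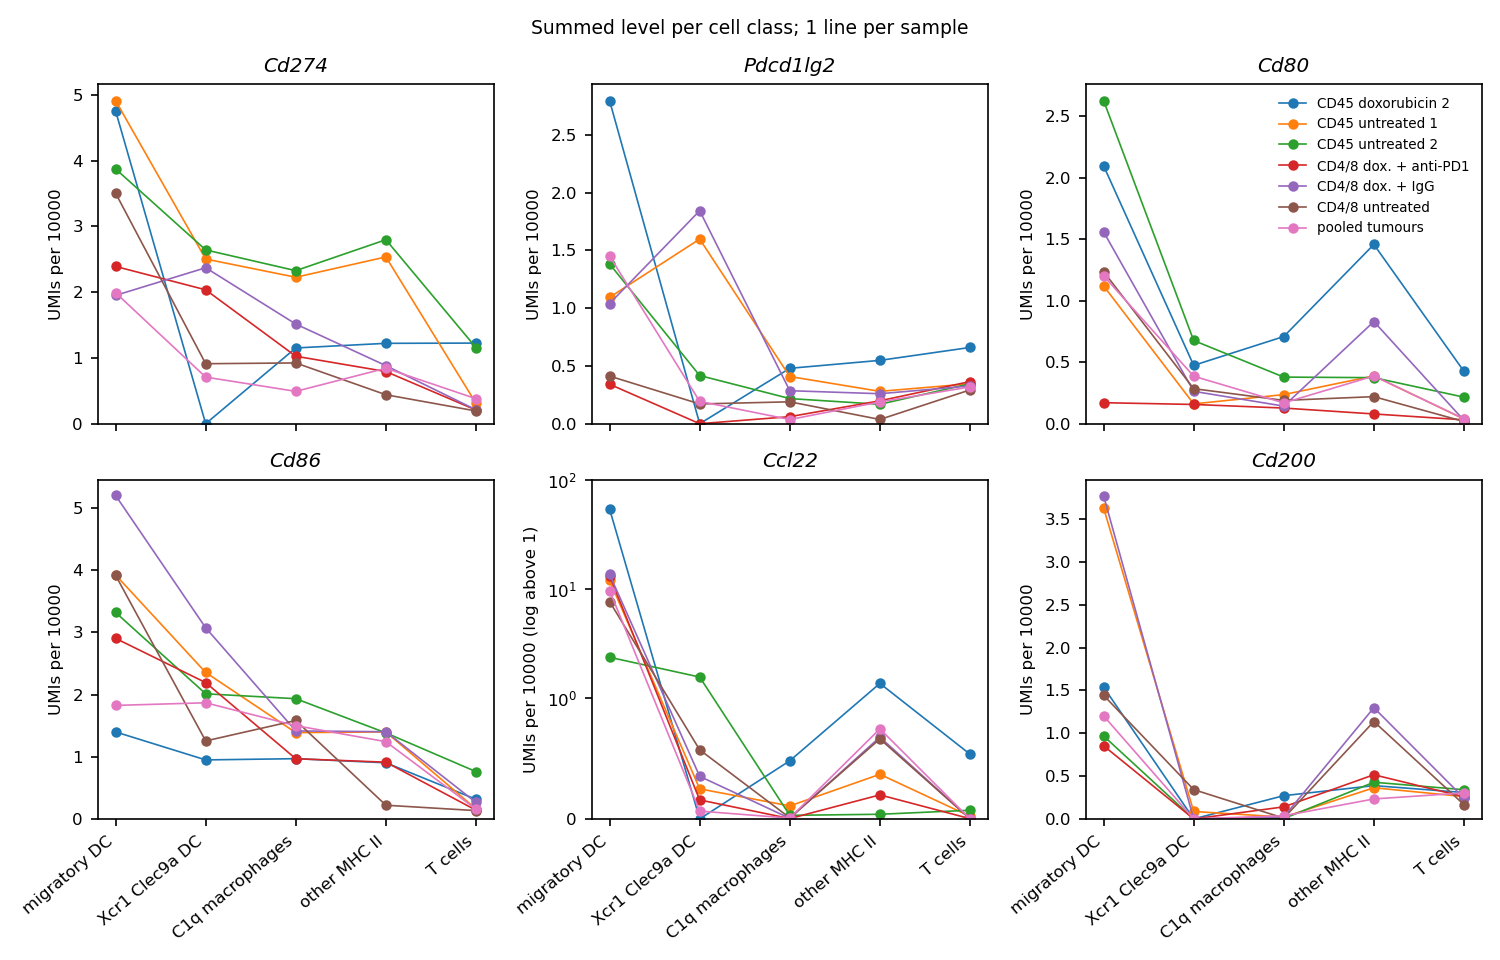
Summed level of each gene (vertical axes, UMIs per 10000; log above 1 for Ccl22) in 5 cell classes, with 1 line for each of the 7 samples that hold migratory dendritic cells. Ccl22, Cd200 and Cd80 are highest in the migratory cells in every sample, while Pdcd1lg2 is higher in the Xcr1 Clec9a cells of 2 samples.

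Among the other checkpoint ligands, Pvr, which binds TIGIT and CD226, stood at 0.562 UMIs per 10000 over all 56 cells with a UMI in 25. Vtcn1 had no UMI, and Lgals9, Vsir, Nectin2 and Cd276 stood at 0.180, 0.127, 0.191 and 0.0318. Of 9 measured checkpoint ligands, 4 were at least 2-fold higher and 3 lower than in the other cells of CD45 untreated 1, and 3 and 3 in the pooled table. Over all genes, 12.6% and 10.1% were higher. The median log2 ratio of these ligands was -0.08 and 0.64, against -0.42 and -0.34 over all genes. The higher genes were Cd274, Cd200, Pdcd1lg2 and Pvr in CD45 untreated 1 and the first 3 of these in the pooled table. The count of lower genes, 3 of 9 in both, was near the share over all genes (31.8% and 28.5%). Against the remaining MHC class II cells, Cd200 had log2 ratios of 3.15 and 2.15 and Pdcd1lg2 1.79 and 2.65. On that base Cd274 had 0.94, under 2-fold, and 1.19, and Pvr 0.24 and -0.22.

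Costimulatory ligands were higher more evenly. Of 8 measured, 7 were at least 2-fold higher and 0 lower in both samples, with median log2 ratios of 2.50 in CD45 untreated 1 and 2.45 in the pooled table. Set against the remaining MHC class II cells, the medians were 1.13 and 1.04. Over all measured genes, 12.6% and 10.1% were at least 2-fold higher than in all other cells of CD45 untreated 1 and the pooled table. Cd83, a maturation marker that stabilises MHC class II at the surface, was at 6.85 UMIs per 10000 with a UMI in 50 cells. Cd40, through which helper T cells signal to dendritic cells, was at 1.46 with a UMI in 39. By sample, the summed level of the list was 20.1 UMIs per 10000 (17.0 to 23.7) in CD45 doxorubicin 2, against 17.4 (16.1 to 18.8) in CD45 untreated 1 and 14.8 (12.1 to 17.9) in CD45 untreated 2 (33.1 without the marked cell). It was 16.9 in the anti-PD1 cells (31.2 without the cell rich in C1q), 14.3 in the IgG cells, 19.2 in the CD4/8 untreated cells and 12.2 in the pooled cells, while the other cells of these samples had at most 4.54.

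Of the cytokine genes, Il12b, which encodes the shared p40 chain of interleukins 12 and 23, had a UMI in 16 of the 56 cells. These were 2 of 3 cells in CD45 doxorubicin 2, against 9 of 23 in CD45 untreated 1 and 1 of 3 in CD45 untreated 2. In the CD4/8 libraries they were 0 of 3 anti-PD1 cells, 0 of 5 IgG cells and 1 of 4 untreated cells, with 3 of 15 in the pooled table. Il12b was therefore seen in a minority of the cells, at up to 23 UMIs in 1 cell. Il4i1, a secreted enzyme that breaks down phenylalanine and tryptophan and restrains T cells, was found in 49 cells at 4.73 UMIs per 10000. By sample Il4i1 was 6.29 in CD45 doxorubicin 2, against 4.99 in CD45 untreated 1 and 4.15 in CD45 untreated 2, which stood highest of the CD45 samples at 7.42 without the marked cell. It was 2.22 in the anti-PD1 cells (6.24 without the cell rich in C1q), 7.02 in the IgG cells, 4.95 in the CD4/8 untreated cells and 3.86 in the pooled cells. Its log2 ratio to other cells was 5.75 in CD45 untreated 1 and 5.95 in the pooled table. Il7r, the receptor chain for interleukin 7 and TSLP, was found in 40 cells. Il1b was found in 35 cells at levels from 1.30 UMIs per 10000 in the IgG cells to 60.0 in the anti-PD1 cells. Without the 5 cells with markers of another type, the levels of Il1b ran from 0.235 in the CD4/8 untreated cells to 8.39 in CD45 untreated 1, with 5.67 in the anti-PD1 cells.

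Most transcription factors of dendritic cell maturation were higher than in the other cells. In CD45 untreated 1, 14 of 16 were at least 2-fold higher and 0 lower (median log2 ratio 1.99), and for the pooled cells 13 of 16 and 0 (2.33). Over all measured genes, 12.6% and 10.1% were higher in the same order. Against the remaining MHC class II cells, a mixed class without Xcr1 Clec9a cells and C1q macrophages, the medians of these factors were 1.33 and 1.34. The NF-kappaB gene Rel was at 10.8 UMIs per 10000 and Nfkb1 at 7.36, and Id2, a factor that dendritic cells need to develop, was at 14.3. Irf8, a factor of type 1 dendritic cells, exceeded Irf4, a factor of type 2 dendritic cells, in UMIs in 45 of the 56 cells, and the reverse held in 7. Batf3, which sustains Irf8 in type 1 dendritic cells, had a UMI in 47 cells, although the rule allowed fewer than 2 UMIs of Xcr1 and Clec9a together. Other type 1 markers were scarce: Naaa and Cadm1 had a UMI in 5 cells each. Of the type 2 markers, Sirpa had a UMI in 29 cells and Itgam in 6. The part of each lineage among the migratory cells was not tested. The signalling genes Traf1, which NF-kappaB induces, and Nfkbia, its inhibitor, stood at 6.76 and 16.0 UMIs per 10000.

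Genes of antigen presentation divided by type. H2-Aa stood at 46.0 UMIs per 10000, H2-Ab1 at 27.1 and Cd74, the invariant chain, at 113. In CD45 untreated 1, 6 of the 9 measured MHC class II genes that the rule did not use were at least 2-fold higher than in all other cells, with a median log2 ratio of 1.52, but against the remaining MHC class II cells the median was 0.04. In the pooled table, these medians were 1.35 and -0.76. H2-Ab1 was lower in the migratory cells than in Xcr1 Clec9a cells in 7 of 7 samples and lower than in C1q macrophages in 6 of 7 (5 of 7 without the cell rich in C1q of the anti-PD1 library), and 8 of the 56 cells had no H2-Ab1 UMI. Of 15 genes of MHC class I presentation, 6 in CD45 untreated 1 and 3 in the pooled table were at least 2-fold higher and 0 lower, against 12.6% and 10.1% higher over all genes.

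Uptake and division ran the other way. Of 13 lysosome and uptake genes measured in CD45 untreated 1, 9 were at least 2-fold lower and 1 higher (median log2 ratio -2.35). For the pooled cells 10 of 12 were lower and 0 higher (-2.29). Over all measured genes, 31.8% and 28.5% were lower in the same order, with median log2 ratios of -0.42 and -0.34, and 12.6% and 10.1% were higher. Lyz2, lysozyme, had a UMI in 9 cells with a log2 ratio of -4.73 in CD45 untreated 1, and Ctsb, cathepsin B, had a ratio of -2.35. All 16 genes of cell division were at least 2-fold lower in CD45 untreated 1 (median -2.95), and 13 of 14 in the pooled table (-2.41). Their summed level was 0.699 UMIs per 10000 in the doxorubicin 2 cells, against 1.74 in the untreated 1 cells and 3.74 in the untreated 2 cells, all of it from the marked cell. In all 7 samples it was 0.699 to 3.74 in the migratory cells, against 4.68 to 17.9 in the other cells. Without the 5 cells with markers of another type it was 0 to 3.97. Mki67, the proliferation antigen, had a UMI in 14 of the 56 cells.

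**Figure D5:**
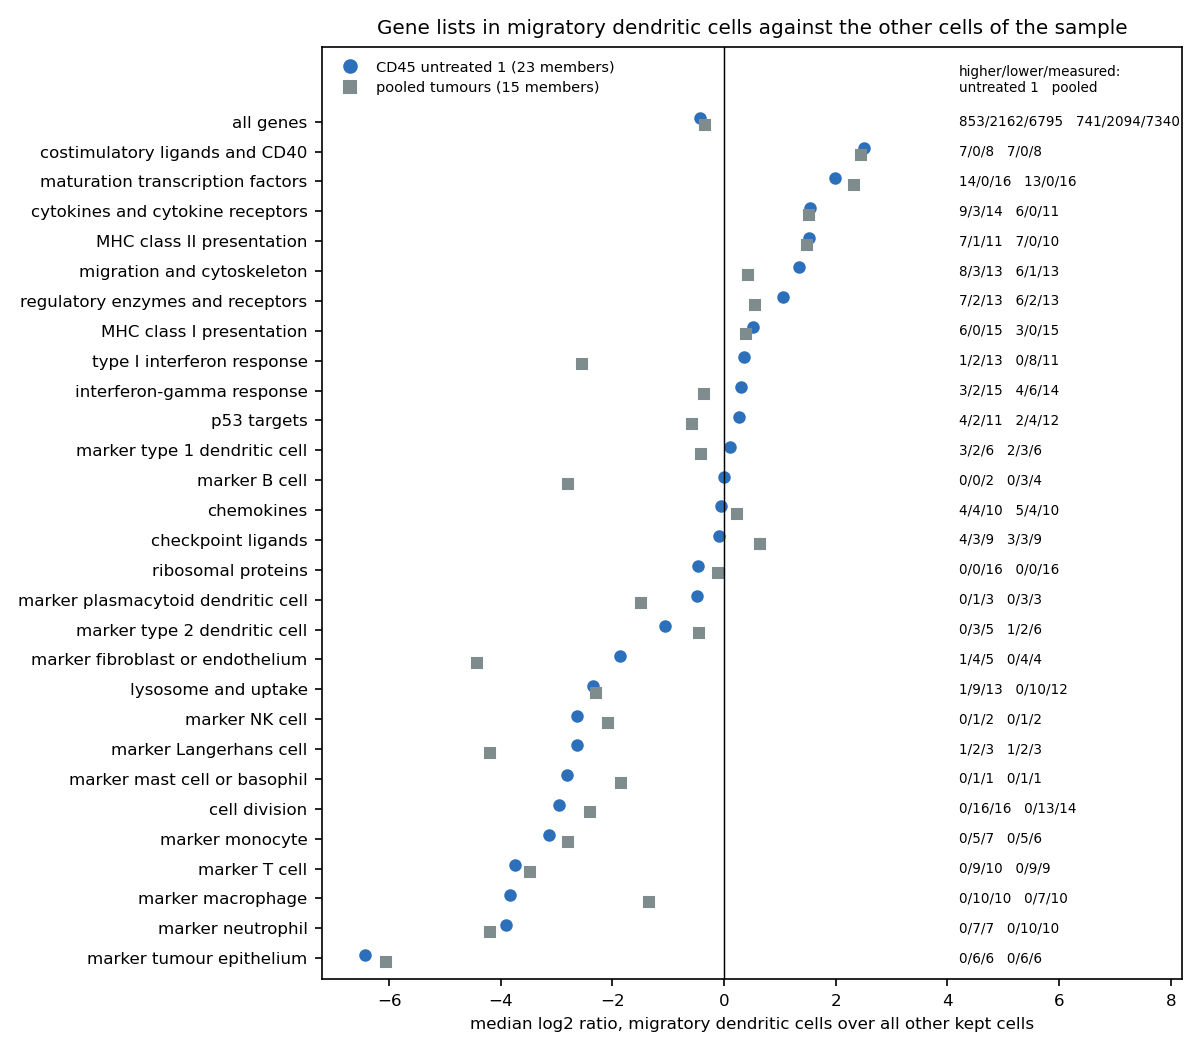
Median log2 ratio of each gene list (horizontal axis) between the migratory dendritic cells and all other kept cells of the same sample, in CD45 untreated 1 (circles) and the pooled tumours (squares). The figures at the right count genes at least 2-fold higher, at least 2-fold lower and measured; costimulatory ligands (2.50 and 2.45) and maturation factors (1.99 and 2.33) lie at the top, and epithelial markers at the bottom. The migration and MHC class II lists include the rule's own genes here.

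Over all genes, many but not all of the higher genes were shared by both samples that held at least 10 of the cells. Of 853 genes at least 2-fold higher in CD45 untreated 1 and 741 in the pooled table, 521 were higher in both, 61.1% and 70.3% of the lists. The rule fixed part of this overlap. Some lists differed: of the type I interferon genes, 1 of 13 was at least 2-fold higher and 2 lower in CD45 untreated 1 (median log2 ratio 0.35), against 0 of 11 higher and 8 lower in the pooled table (-2.55). The 15 genes with the highest ratios in CD45 untreated 1, among genes at 100 CPM or more in the migratory cells, were Ccr7, Ccl22, Fscn1, Il4i1, Tbc1d4, Cacnb3, Mmp25, Gm13546, Pkib, Ramp3, Bcl2l14, Eno3, Ly75, Nudt17 and Flt3. All 15 were also higher in the pooled table. Tbc1d4, a regulator of vesicle traffic, had log2 ratios of 5.44 in CD45 untreated 1 and 5.28 in the pooled table, and Cacnb3, a calcium channel subunit, 4.99 and 4.48. Ly75, the endocytic receptor DEC-205 of dendritic cells, had 4.65 and 4.71, and Flt3, the growth factor receptor of the dendritic lineage, 4.54 and 4.07. Bcl2l14 differed most between the samples, at 4.69 and 2.07. Among genes at 1000 CPM or more in the other cells, the lowest ratios were those of Csn3, a milk casein, Krt18, Lgals7, Lcn2, Wfdc18, the second keratin Krt8, Cxcl2 and Apoe, a lipid carrier of macrophages, followed by Ly6e and Neat1. These were chosen after their values were seen. The immediate early genes Jun, Fosb, Jund and Fos came next, with log2 ratios of -2.79, -2.75, -2.56 and -2.55 in CD45 untreated 1.

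Doxorubicin damages DNA and the study treated tumours with it, so interferon and p53 target genes were read by sample. The 16 interferon-gamma response genes summed to 4.62 UMIs per 10000 (3.18 to 6.48) in the 3 cells of CD45 doxorubicin 2, against 27.0 (25.3 to 28.7) in CD45 untreated 1 and 24.3 (20.9 to 28.2) in CD45 untreated 2. Without the marked cell, untreated 2 had 9.39 (5.66 to 14.7). The other cells of the same libraries were also lowest in doxorubicin 2, at 5.45, against 20.04 in untreated 1 and 28.8 in untreated 2. Cxcl9, the interferon-gamma chemokine, had 0 UMIs in doxorubicin 2, against 192 in 11 cells of untreated 1 and 60 in untreated 2, all in the marked cell. The type I interferon genes summed to 2.38 UMIs per 10000 in doxorubicin 2, against 13.03 in untreated 1 and 29.6 in untreated 2 (8.90 without the marked cell). The other cells had 12.7 in doxorubicin 2, against 11.4 in untreated 1 and 14.1 in untreated 2. Outside the CD45 libraries, the CD4/8 untreated cells had 2.47 (1.28 to 4.32) of the type I genes and 8.87 of the interferon-gamma genes, and the pooled cells 3.07 and 9.58. The IgG cells had 5.72 and 7.67, and the anti-PD1 cells 7.52 and 11.8 (17.6 and 29.5 without the cell rich in C1q). The untreated CD4/8 cells were thus as low in type I genes as doxorubicin 2. The p53 targets summed to 23.6 (20.2 to 27.5) in doxorubicin 2, against 17.1 (15.8 to 18.4) in untreated 1 and 17.7 (14.8 to 21.1) in untreated 2. Without the marked cell untreated 2 had 35.6 (27.9 to 44.8), so the order of the treatments for p53 targets turned with that 1 cell. The other cells had 20.7 in doxorubicin 2, against 7.75 in untreated 1 and 7.81 in untreated 2. Here and for the interferon genes, the other cells are all other kept cells, whose makeup differed. Cells rich in S100a8 and S100a9 were 49.7% of kept cells in doxorubicin 2, against 8.66% and 8.40% in the untreated libraries. Treatment and makeup cannot be told apart in these values. Cdkn1a, the cell cycle inhibitor induced by p53, was 13.4 UMIs per 10000 in doxorubicin 2, against 10.5 in untreated 1 and 7.89 in untreated 2 (13.8 without the marked cell). In the other samples p53 targets ranged from 10.1 in the IgG cells to 16.7 in the anti-PD1 cells. Only 1 CD45 doxorubicin library held any of the cells, so these differences have no replicate check and were not tested.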

How the data were processed

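Tumours were digested, CD45- or CD4/8-positive cells were drawn magnetically, and single cells were barcoded with a Chromium Single Cell 3' kit, per the labels' protocols. The authors deposited whole-number UMI counts per gene and called barcode, and the file headers name Cell Ranger 6.0.0. The labels give the build as GRCm38 (mm10). The pooled tumour table holds counts from Cell Ranger merged with Seurat, per the submitters' processing notes. The matrices name no genes. Rows were named by the row order of the pooled table, against which row totals gave r of 0.954 to 0.984 across genes. A shift of 50 rows or fewer gave no r above 0.354. A bulk table's 12 other per-sample columns were not used.

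Cells with at least 500 UMIs and 200 genes and under 20% mitochondrial UMIs were kept, and no doublet caller was run. Other classes were MHC class II cells with 2 or more Xcr1 and Clec9a UMIs, those with 10 or more C1q UMIs, the remaining MHC class II cells, and cells with Cd3 genes. Counts were summed per sample and class, divided by the summed UMIs and given per 10000 with exact Poisson 95% intervals, which cover counting error only. Log2 ratios used CPM + 5 over genes at 20 CPM or more in either class; a gene passes this filter through either side, so measured genes are not all genes listed. Library shares were compared with a two-sided exact permutation test. A count test of genes between doxorubicin and untreated cells was planned for libraries with at least 5 cells each, and was not run because the doxorubicin libraries held 0 and 3. Thinning drew 2000 UMIs per cell once, with at most 500 T cells per sample. Alternatives were thinning, other limits on Fscn1, UMIs and mitochondrial share, leaving out libraries or cells with markers of other types, and a replicate block. Numbered CD45 libraries share only a number in the labels, so they were not taken as pairs.

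Named genes were the rule, marker and ligand genes, up to 4 genes of each of 29 lists by level in the cells over the CD45 libraries, and the 15 highest ratios; others were chosen after their values were seen. The members and lists were chosen with earlier results of these data known. The scripts were tested on simulated counts. Python 3.11.15 was used with numpy 2.4.6, pandas 2.3.3, scipy 1.17.1 and matplotlib 3.10.9.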

Additional observations from a re-analysis of the deposited data

How the results depend on the processing

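For the share of kept cells, the difference between doxorubicin and untreated CD45 libraries was -0.367 points and kept its negative sign in each alternative run. It was -0.506 with 1 Fscn1 UMI required and -0.339 with 3, -0.386 under 10% mitochondrial UMIs, -0.383 at 1000 UMIs or more, -0.193 after thinning and -0.325 without cells that carry markers of another type. Leaving out 1 library gave -0.605 to -0.129. For the share of MHC class II cells the main difference of -0.783 points became -1.16, -0.716, -0.845, -0.826, -0.0605 and -0.677 in the same order, and leaving out 1 library gave -1.51 to -0.0552, the weakest without untreated 1. No p fell below 0.05, which 2 against 2 libraries cannot reach. With the replicate number as a block, where the pairing rests on the number alone, the differences stayed at -0.367 (exact p = 0.5) and -0.783 (exact p = 1). The removal of cells with other markers and the block were chosen after seeing the data. For ligand and marker genes, 25 alternative ratios to other cells moved little, 23 moved and 0 reversed. The planned fits of genes between treatments, with their alternatives (other scaling, another tool, no filter, libraries left out, stricter Fscn1, neutrophil and free RNA limits, block, thinning), were not run, since the doxorubicin libraries held 0 and 3 cells. Depth limits the scarce ligands: Pdcd1lg2 and Cd80 rest on 118 and 124 UMIs in all 56 cells.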
